A study of Homo sapiens with 12 samples.

Results

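The PHLDA family consists of PHLDA1, PHLDA2 and PHLDA3, small proteins built around a pleckstrin homology-like domain, and it was examined here together with PHLDA1-AS1, a transcript annotated on the strand opposite PHLDA1. The 4 genes were taken by their symbols from the gene tables of 2 cancer cell lines, and all 4 were listed in both tables, among 11070 genes in 23132/87 and 11554 genes in SW48. They were chosen from the measured response to treatment, so their values and changes are a description and carry no test. 23132/87 is a gastric adenocarcinoma line and SW48 a colorectal adenocarcinoma line, both labelled WT. Each line received either 10 µM myricone C (MyrC), which the study's title names as a neolignan of Myristica fragrans, or vehicle (DMSO) for 48 h. There were 3 biological replicates in each of the 4 groups, hence 12 libraries. The title relates the compound to apoptosis through endoplasmic reticulum (ER) stress and to ROCK inhibition. Each condition was measured in 1 line per tumour type and at a single dose and time.

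A pleckstrin homology domain binds phosphoinositide lipids of the membrane, the lipids through which AKT is recruited and activated. PHLDA1, also called TDAG51, is an early response gene induced downstream of growth factor and ERK signalling and of several cell stresses. PHLDA2 lies in the imprinted domain at 11p15.5, is expressed from the maternal allele and is best known for restraining placental growth. PHLDA3 is a target of p53 and competes with AKT for membrane lipids.

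At the PHLDA1 locus the annotated exons of PHLDA1-AS1 lie almost wholly opposite exons of PHLDA1. In GRCh38 with GENCODE release 29, PHLDA1 spans chr12:76025447-76033932 on the minus strand, has 3 annotated transcripts and a longest coding sequence of 1203 bases. PHLDA1-AS1, matched by its Ensembl identifier to the antisense gene AC011611.3, spans chr12:76030494-76031378 on the plus strand. Its 2 exons (76030494 to 76030594 and 76030911 to 76031378) hold 569 bases, separated by an intron of 316 bases. Of these exonic bases, 553 (97.2%) lie opposite an exon of PHLDA1 and 524 (92.1%) opposite its coding sequence, whereas the shared stretch makes up 6.85% of the 8069 exonic bases of PHLDA1. Only 16 exonic bases of PHLDA1-AS1 have no PHLDA1 exon opposite them. The sequences below show that relation, all written 5′ to 3′ from GRCh38. The first joins the last 30 bases of PHLDA1-AS1 exon 1 to the first 30 of exon 2, with exon 2 in capitals. This joined run of 60 bases matches a 5913-base annotated PHLDA1 transcript on neither strand. The other sequences are a 56-base stretch at chr12:76030539-76030594 read on each strand, and each is the reverse complement of the other.
PHLDA1-AS1 splice junction: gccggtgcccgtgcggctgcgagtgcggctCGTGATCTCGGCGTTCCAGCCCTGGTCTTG
PHLDA1-AS1 exon 1 (plus strand): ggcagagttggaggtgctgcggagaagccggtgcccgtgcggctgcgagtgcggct
PHLDA1 exon 1 opposite (minus strand): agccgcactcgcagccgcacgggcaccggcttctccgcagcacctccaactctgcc

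The library kit marks the strand of each read, but the strand setting used for counting is not given in the sources used here. Without strand, reads lying within a shared exonic stretch, such as the paired 56-base sequences, cannot be assigned to either gene. Such stretches hold 553 of the 569 exonic bases of PHLDA1-AS1 (97.2%), and its values below are uncertain to that extent. The map of the locus places the exons of both genes on 1 scale.

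**Figure D1:**
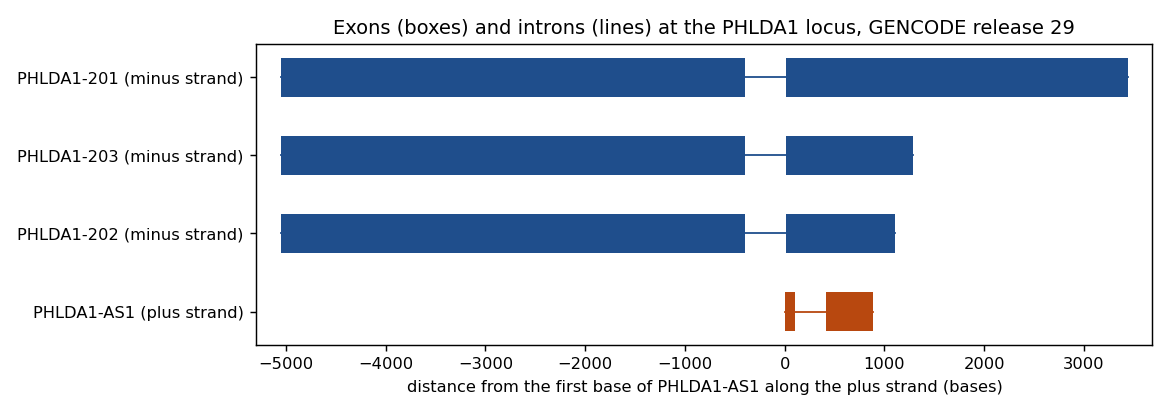
Exons (boxes) and introns (lines) of the 3 PHLDA1 transcripts and of PHLDA1-AS1, by distance in bases from the first base of PHLDA1-AS1 along the plus strand. Both PHLDA1-AS1 exons overlap the first PHLDA1 exon, with 553 of 569 exonic bases shared.

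PHLDA1 was lower with myricone C in the gastric line and higher in the colorectal line. Its signal, the authors' deposited expression value per gene, was 47.5, 48.5 and 50.3 in the vehicle libraries of 23132/87 and 27.2, 26.9 and 26.1 in the treated ones (replicates 1, 2 and 3 here and below). All 3 treated libraries lay below all vehicle libraries, and the spread within each group was small. The mean went from 48.7 ± 1.41 to 26.7 ± 0.559 (SD, n = 3), which is 54.8% of vehicle and a change of -0.84 ± 0.088 (SE) on the log2(signal + 1) scale. In SW48 the vehicle libraries held 45.2, 25.4 and 46.7 and the treated ones 119, 237 and 183. Again the groups did not overlap, but both were widely spread, with vehicle replicate 2 low and treated replicate 1 the lowest of its group. The mean went from 39.1 ± 11.9 to 180 ± 59.0 (SD, n = 3), a 4.59-fold ratio and a log2 change of 2.16 ± 0.26 (SE). In RNA from whole cultures, a change in how many cells hold a transcript and a change in RNA per cell cannot be told apart.

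PHLDA1-AS1 had the same directions. In 23132/87 it was 81.2, 70.9 and 47.7 in vehicle and 41.5, 38.0 and 44.5 with myricone C. The groups did not overlap, but vehicle replicate 3 lay close to the treated libraries. The mean was 66.6 ± 17.2 in vehicle and 41.4 ± 3.23 in treated cells (SD, n = 3), with a log2 change of -0.64 ± 0.17 (SE), which ran from -0.86 without vehicle replicate 3 to -0.49 without vehicle replicate 1. In SW48 the antisense signal was 44.2, 19.3 and 25.3 in vehicle and 114, 191 and 196 with myricone C. Here the lowest treated library held more than the highest vehicle library by a wide margin. The mean went from 29.6 ± 13.0 to 167 ± 46.0 (SD, n = 3), a 5.64-fold ratio and a log2 change of 2.50 ± 0.27 (SE).

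PHLDA2, the imprinted member, was higher with myricone C in SW48 and overlapped between groups in 23132/87. The SW48 vehicle libraries held 55.2, 26.9 and 31.7 and the treated ones 58.0, 101 and 103. The gap was narrow, because vehicle replicate 1 and treated replicate 1 were nearly level. The means were 37.9 ± 15.2 and 87.6 ± 25.6 (SD, n = 3), a 2.31-fold ratio and a log2 change of 1.21 ± 0.26 (SE). In 23132/87 PHLDA2 was 42.6, 38.7 and 32.7 in vehicle and 36.9, 49.6 and 51.4 in treated libraries. Treated replicate 1 fell among the vehicle libraries, and the log2 change was 0.26 ± 0.14 (SE), from a mean of 38.0 ± 4.94 to one of 46.0 ± 7.88 (SD, n = 3).

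PHLDA3, the p53 target, overlapped between vehicle and treated libraries in both lines. In 23132/87 it was 25.1, 24.7 and 14.0 in vehicle and 20.5, 22.1 and 24.2 with myricone C, with means of 21.3 ± 6.28 and 22.3 ± 1.85 (SD, n = 3). Vehicle replicate 3 was the low library, and the log2 change of 0.10 ± 0.19 (SE) became -0.16 without it. In SW48 the vehicle libraries held 35.9, 18.8 and 19.2 and the treated ones 25.8, 26.8 and 32.9. Vehicle replicate 1 was the highest of the 6, and the log2 change was 0.26 ± 0.22 (SE), which was 0.55 when that library was left out.

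**Figure D2:**
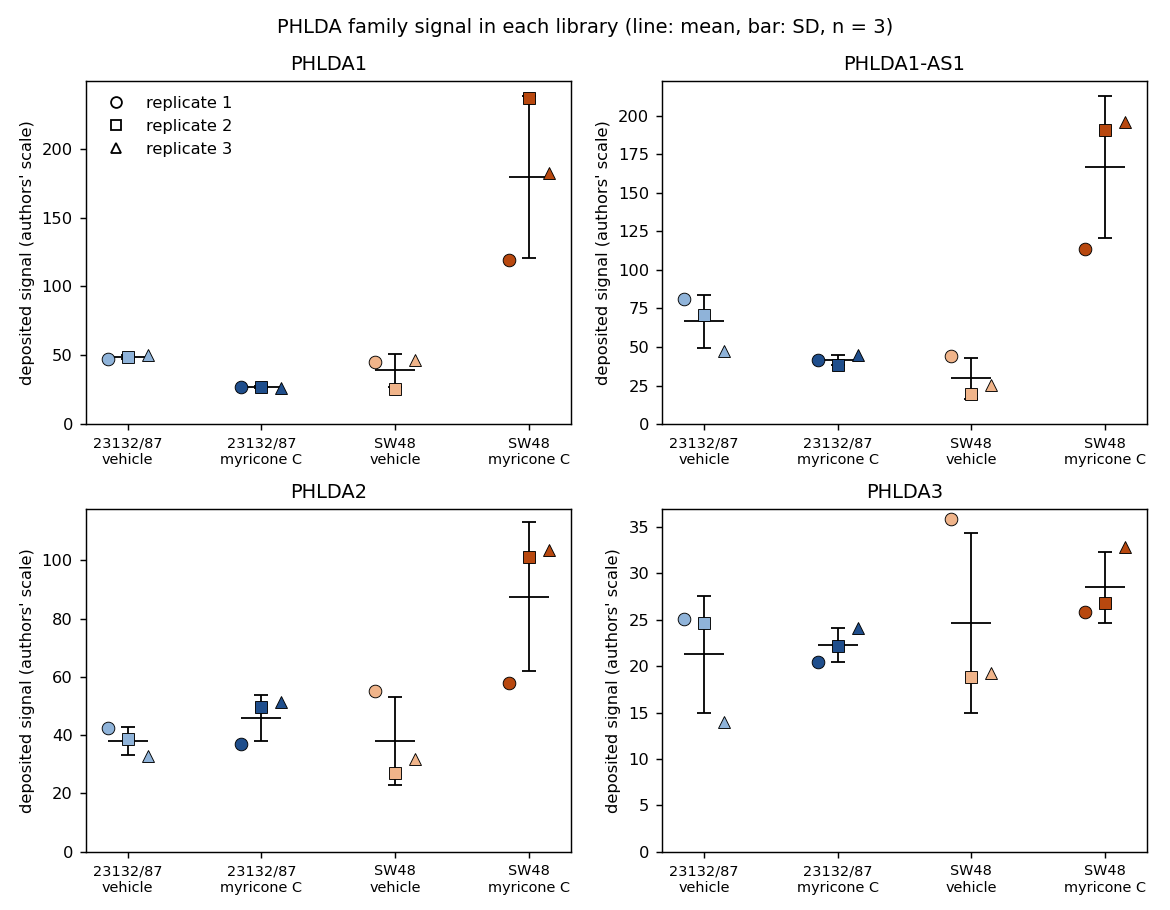
Deposited signal (vertical axis from 0, the authors' scale) of the 4 genes in each of 12 libraries, by group; the symbol shape gives the replicate, the horizontal line the mean and the bar the SD (n = 3). PHLDA1 and PHLDA1-AS1 do not overlap between vehicle and myricone C in either line, and PHLDA3 overlaps in both.

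In 23132/87 the libraries did not overlap for 2 of the 4 genes, both lower with myricone C, against 56.8% of all genes in either direction (28.9% higher, 27.9% lower). In SW48 they did not overlap for 3 of the 4, all higher, against 45.3% of all genes in either direction (16.8% higher, 28.4% lower). PHLDA1 and PHLDA1-AS1 were both lower in 23132/87 and higher in SW48 with no overlap in either line, a pattern met by 102 genes (0.995%) of the 10252 in both tables, where 312 (3.04%) had opposite directions without overlap. Since the genes were chosen on these contrasts, nothing is read from those shares.

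By size of log2 change, PHLDA1-AS1 ranked 23 from the top among the 11554 genes of SW48, PHLDA1 ranked 42 and PHLDA2 ranked 187. Among the 11070 genes of 23132/87, PHLDA1 ranked 703 and PHLDA1-AS1 1214 from the largest fall. The change in SW48 minus that in 23132/87 was 3.01 ± 0.31 (SE) for PHLDA1 and 3.14 ± 0.37 for PHLDA1-AS1 on the log2 scale. These ranked 3 and 2 from the highest of 10252 differences. The difference was 0.94 ± 0.35 for PHLDA2, rank 234, and 0.15 ± 0.33 for PHLDA3, rank 2700. The family was therefore split: PHLDA1 and its antisense partner had changes of opposite sign in the lines, PHLDA2 had the larger change in SW48, and the PHLDA3 difference was smaller than its standard error.

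**Figure D3:**
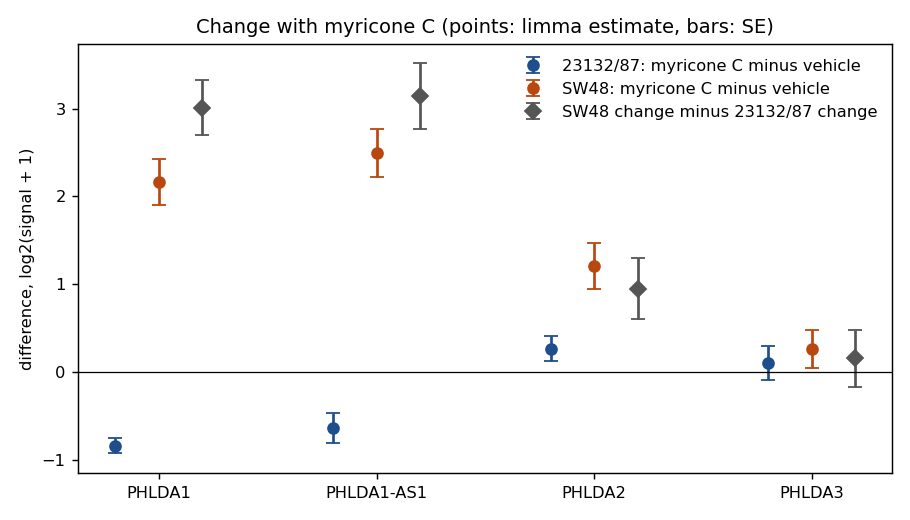
Change with myricone C on the log2(signal + 1) scale (vertical axis) for each gene in 23132/87 and in SW48, and the SW48 change minus the 23132/87 change; points are limma estimates and bars are SE. PHLDA1 and PHLDA1-AS1 lie below 0 in 23132/87 and above 2 in SW48.

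Both tables were filtered by line, so levels are set side by side across lines without a test. For PHLDA1 the order of the group means was treated SW48 (180), vehicle 23132/87 (48.7), vehicle SW48 (39.1) and treated 23132/87 (26.7). Both vehicle means differed by less than the SD in SW48, and the lowest SW48 vehicle library lay below the treated 23132/87 libraries. For PHLDA1-AS1 the order was treated SW48 (167), vehicle 23132/87 (66.6), treated 23132/87 (41.4) and vehicle SW48 (29.6), and the last 2 groups overlapped. PHLDA2 was highest in treated SW48 (87.6), and the other three groups overlapped at means of 46.0, 38.0 and 37.9. The 4 group means of PHLDA3 ran only from 21.3 to 28.5, and every neighbouring pair overlapped.

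The ratio of PHLDA1-AS1 to PHLDA1 signal moved much less than either gene in SW48. It was 0.977, 0.757 and 0.541 in SW48 vehicle and 0.953, 0.804 and 1.07 with myricone C, with means of 0.758 ± 0.218 and 0.942 ± 0.133 (SD, n = 3). The groups overlapped. Across the 6 SW48 libraries the highest ratio was 1.98 times the lowest, whereas PHLDA1 spanned 9.33-fold and PHLDA1-AS1 10.2-fold. In 23132/87 the ratio was 1.71, 1.46 and 0.949 in vehicle and 1.53, 1.41 and 1.70 in treated libraries, with means of 1.37 ± 0.388 and 1.55 ± 0.146 (SD, n = 3), again overlapping. There the ratio spanned 1.8-fold, PHLDA1 1.92-fold and PHLDA1-AS1 2.13-fold, so it was about as variable as the genes themselves. Vehicle replicate 3 had the lowest ratio of its line in both lines. How far reads shared between the strands enter this ratio was not tested.

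**Figure D4:**
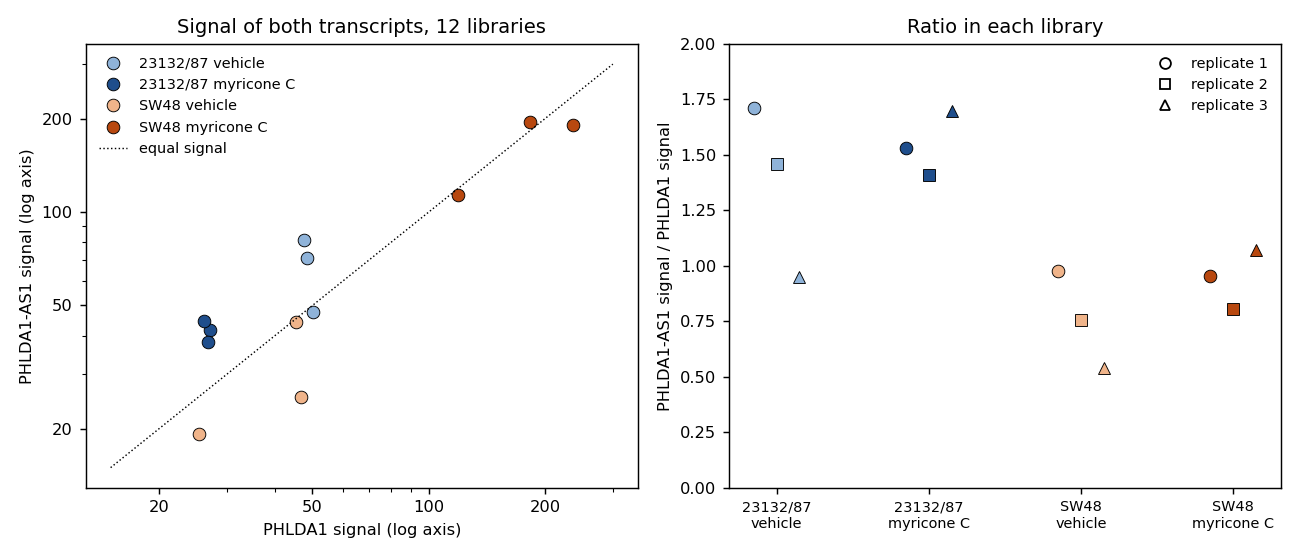
Left, PHLDA1-AS1 against PHLDA1 signal in 12 libraries (log axes, dotted line at equal signal); right, their ratio in each library by group, with replicates by symbol. SW48 libraries extend along the dotted line from 19.3 to 196 in PHLDA1-AS1 signal, while their ratio stays between 0.541 and 1.07.

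Some libraries deviated for several of the genes at once. Each gene's deviation from its group mean was ranked among all genes of the library. In SW48 vehicle replicate 2, only 0.493% of genes lay further below their group mean than PHLDA1, 0.64% than PHLDA1-AS1 and 1.33% than PHLDA2. In SW48 vehicle replicate 1, 99.8%, 99.7% and 99.7% of genes had a lower deviation than PHLDA1-AS1, PHLDA2 and PHLDA3. Treated replicate 1 of SW48 was low for PHLDA1 (1.09%), PHLDA1-AS1 (1.29%) and PHLDA2 (1.04%). In this library 5.26% of the signal came from genes of the 7SL and small nuclear RNAs, whereas the remaining SW48 libraries held 0.049% to 0.204%. Without it the PHLDA1 change in SW48 was 2.43. Without SW48 vehicle replicate 2 it was 1.89. In 23132/87, vehicle replicate 3 was low for PHLDA1-AS1 (1.06%) and PHLDA3 (0.452%) while PHLDA1 was near its group mean.

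The lines were checked against marker lists. All 7 epithelial markers, including EPCAM and CDH1, were among the analysed genes of both lines. Of 7 gastric markers, TFF1 was analysed in 23132/87 and none in SW48, and of 8 intestinal markers, 5 were analysed in 23132/87 and 3 in SW48. Among 6 leukocyte markers, CD68 in 23132/87 was the only one analysed, and among 7 mesenchymal markers, COL1A1 in 23132/87 and SNAI1 in SW48. The other markers of these lists were not analysed here. The summed epithelial signal moved in the same directions as PHLDA1, from 7860 to 10500 in 23132/87 vehicle libraries down to 3110 to 4190 with myricone C, and from 1060 to 1850 up to 2890 to 4080 in SW48. Most of that sum was KRT8 and KRT18, keratins of simple epithelia, and the single markers were divided. In 23132/87, 4 of 7 fell (KRT8, KRT18, KRT19 and EPCAM) and 3 rose (CDH1, CLDN7 and ELF3), beside 23.2% and 23.3% of all genes. In SW48 6 rose and none fell, beside 10.1% and 19.2% of all genes. EPCAM there had a log2 change of -0.27 (adjusted p = 0.108, limma). KRT8 had log2 changes of -1.48 (adjusted p = 0.000193, limma) and 1.19 (adjusted p = 0.0057), whereas CLDN7, a tight junction protein, rose by 1.06 and 1.07. The SW48 rises of CDH1, KRT19 and ELF3 missed the threshold when some single libraries were left out (adjusted p up to 0.132): treated replicate 2 or vehicle replicate 3 for all of them, vehicle replicate 2 for KRT19 and ELF3, and vehicle replicate 1 or treated replicate 3 for CDH1. The part of these markers in the PHLDA1 values was not tested. Summed signal over all genes lay between 464037 and 536594 in the 12 libraries, and read depth is unknown.

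The neighbours on the chromosome were not chosen on these contrasts and were tested with limma over all genes of each table, of which 46.5% passed in 23132/87 (23.3% higher, 23.2% lower) and 29.3% in SW48 (10.1% higher, 19.2% lower). NAP1L1, a nucleosome assembly chaperone whose gene lies 2655 bases from PHLDA1, fell in 23132/87 from 181 ± 7.88 to 122 ± 4.37 (SD, n = 3), and its log2 change was -0.57 ± 0.089 (adjusted p = 0.00063). In SW48 it was 242 ± 34.2 and 214 ± 20.4, a log2 change of -0.18 ± 0.13 (adjusted p = 0.337), whereas PHLDA1 there was 4.59-fold higher. On the other side, KRR1, a ribosome assembly factor 514 kb away, had log2 changes of -0.29 (adjusted p = 0.0483) and 0.16 (adjusted p = 0.496). The KRR1 call in 23132/87 ended when any one of vehicle replicates 2 and 3 and treated replicates 1 and 2 was omitted (adjusted p up to 0.155), and under some other settings (up to 0.159).

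PHLDA2 spans chr11:2928273-2929455 on the minus strand, with a coding sequence of 456 bases. Its neighbour SLC22A18, a transporter gene 3027 bases away, rose in 23132/87 by 0.51 ± 0.15 (adjusted p = 0.0213). Omitting any one of vehicle replicates 2 and 3 and treated replicates 2 and 3 ended this call (adjusted p up to 0.0751). In SW48, where PHLDA2 was higher, SLC22A18 changed by 0.24 ± 0.18 (adjusted p = 0.336). NAP1L4, a homologue of NAP1L1 at 14976 bases, fell in SW48, with a log2 change of -0.49 ± 0.11 (adjusted p = 0.00567) and had a log2 change of -0.20 in 23132/87 (adjusted p = 0.0797). PHLDA1 and PHLDA2 thus each lie beside a gene of the NAP1 family. PHLDA3 spans chr1:201464383-201469237 on the minus strand, with a coding sequence of 381 bases, and neither LAD1 nor CSRP1 beside it passed the test in either line (adjusted p from 0.073 to 0.474).

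In the imprinted domain around PHLDA2, 8 of the 16 listed symbols were analysed. In 23132/87, 2 rose (CARS1 and SLC22A18) and 2 fell, near the 23.3% and 23.2% of all genes. In SW48 1 rose and 4 fell, where 10.1% of all genes rose and 19.2% fell. CARS1, the cysteinyl-tRNA synthetase, rose in both lines, from 22.2 to 62.1 in 23132/87 and from 16.2 to 57.3 in SW48. CD81, a tetraspanin, fell from 269 to 144 in 23132/87 and from 97.9 to 75.4 in SW48 (adjusted p = 0.0297 in SW48). KCNQ1, a potassium channel subunit, fell from 7.08 to 3.28 in SW48 (adjusted p = 0.0098). MRPL23, a mitochondrial ribosomal protein, fell in both lines, but its call in SW48 was lost without vehicle replicates 1 or 3 or treated replicate 3 (adjusted p up to 0.0607) and with a block by column number (0.154). The list median was -0.08 in 23132/87 and -0.30 in SW48, beside medians over all genes of 0.01 and -0.08. The 4 falls in SW48 became 2 without vehicle replicates 1 or 3 or treated replicate 3.

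Genes reported as outputs of ERK signalling, through which PHLDA1 is known to be induced, were split in 23132/87. In SW48 those that passed the test all went up. In 23132/87, 5 of 13 analysed members rose and 4 fell, beside 23.3% and 23.2% of all genes, with a median of -0.00. CCND1, cyclin D1, fell from 78.5 ± 9.84 to 34.0 ± 5.25 and DUSP6, the ERK phosphatase, from 18.0 ± 1.85 to 8.36 ± 0.529 (SD, n = 3, both adjusted p = 0.000108), while EGR1, an immediate early transcription factor, rose by 1.07 ± 0.22 (adjusted p = 0.00318). In SW48, 9 of 15 rose and none fell, with a median of 0.59, beside 10.1% of all genes higher and 19.2% lower. FOSL1, an AP-1 subunit, rose from 33.3 ± 16.6 to 162 ± 51.1 (SD, n = 3), by 2.32 ± 0.34 on the log2 scale (adjusted p = 0.000681). IER3 rose by 2.06 ± 0.29 (adjusted p = 0.000555) and EGR1 by 1.49 ± 0.24 (adjusted p = 0.00121). IER3 also rose in 23132/87, by 0.80 ± 0.092 (adjusted p = 0.000114). The count of 9 ran from 6 to 11 when single libraries were left out.

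The difference between the lines passed the test for 6 of the 13 ERK output genes analysed in both, all in the direction of SW48, beside 12.8% of all genes in either direction (5.34% higher, 7.43% lower in SW48). DUSP6 differed by 1.38 (adjusted p = 0.00125), CCND1 by 1.33 (adjusted p = 0.00513) and FOSL1 by 1.98 (adjusted p = 0.00813). DUSP6 and CCND1 fell in 23132/87 and did not pass the limma test in SW48. Their log2 changes there were 0.36 (adjusted p = 0.13) and 0.14 (adjusted p = 0.621). The count of 6 became 3 without 23132/87 vehicle replicate 2, treated replicates 1 or 3, SW48 vehicle replicate 2 or treated replicate 2. EGR1 differed by 0.43 (adjusted p = 0.478).

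The ER stress and ATF4-CHOP list rose almost whole in both lines, in contrast to the opposite directions of PHLDA1. In 23132/87, 16 of 17 members rose, beside 23.3% of all genes, with a median of 2.34. XBP1, a transcription factor of the unfolded protein response, fell by 0.57 (adjusted p = 0.00665), a call that ended with quantile normalization. In SW48, 16 of 16 rose, beside 10.1% of all genes, with a median of 2.03. DDIT3, which encodes CHOP, rose from 5.08 ± 1.74 to 108 ± 20.2 in 23132/87 and from 9.23 ± 0.301 to 261 ± 116 in SW48 (SD, n = 3). CHAC1, a glutathione-degrading enzyme, rose by 3.82 ± 0.13 and 4.60 ± 0.25. ATF3, a stress-induced transcription factor, rose by 4.18 ± 0.26 in 23132/87. It was not among the analysed genes of SW48, so its change there is unknown. DDIT4, an mTORC1 inhibitor, rose by 2.20 ± 0.099 in 23132/87 and by 4.75 ± 0.26 in SW48. Between the lines 3 of 16 members differed toward SW48 and 1 toward 23132/87, beside 5.34% and 7.43% of all genes. The first of these counts became 6 without SW48 treated replicate 1.

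The p53 target list, to which PHLDA3 is related by function, moved in both directions. In 23132/87, 9 of 22 members rose and 7 fell, beside 23.3% and 23.2% of all genes. In SW48 6 of 23 rose and 4 fell, beside 10.1% and 19.2%. The medians were 0.18 and -0.05, and the PHLDA3 changes given above were 0.10 and 0.26. GDF15, a secreted stress cytokine, rose from 69.0 ± 7.93 to 303 ± 26.6 in 23132/87 and from 15.7 ± 9.29 to 188 ± 73.7 in SW48. CDKN1A, the p21 inhibitor of cyclin-dependent kinases, rose by 1.59 ± 0.16 and by 1.11 ± 0.32, the latter with an adjusted p of 0.0772 without SW48 treated replicate 2. TNFRSF10B, a death receptor, rose by 1.43 ± 0.11 and 1.76 ± 0.20. These genes are named for the largest absolute changes of the list in each line, and the members that fell are only counted. The 7 falls in 23132/87 became 2 without vehicle replicate 1 or 2 and 4 without treated replicate 1 or 3, and the 4 in SW48 became 8 without treated replicate 1.

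Of the AKT pathway list, 5 of 21 members rose and 5 fell in 23132/87, close to the 23.3% and 23.2% of all genes. In SW48 2 of 21 rose and 2 fell, where all genes stood at 10.1% and 19.2%. The medians were -0.07 and -0.13, and none of these counts is read as a result about the list. AKT1, the kinase with which PHLDA3 is known to compete, fell in 23132/87 from 133 ± 15.9 to 53.4 ± 10.3 (SD, n = 3), and its log2 change was -1.31 ± 0.15 (adjusted p = 0.000106). In SW48 AKT1 fell by 0.39 ± 0.12 (adjusted p = 0.0342). That call ended when any one of vehicle replicates 1 and 3 and treated replicates 2 and 3 was omitted (adjusted p up to 0.143), or with another scaling, no trend or a block by column number (adjusted p up to 0.128). FOXO3, a transcription factor that AKT restrains, rose by 0.89 ± 0.12 in 23132/87 and by 0.53 ± 0.17 in SW48. The SW48 call for FOXO3 (adjusted p = 0.0351) was lost without vehicle replicates 1 or 3 or treated replicates 1 or 2 (adjusted p up to 0.124). TSC1, an mTORC1 inhibitor, rose by 0.85 ± 0.13 in 23132/87, and PHLPP1, an AKT phosphatase, fell by 0.78 ± 0.19 in SW48. The 5 falls in 23132/87 became 2 or 3 without vehicle replicate 1 or 2 or treated replicate 1 or 2. The 2 rises in SW48 became 0 without vehicle replicates 1 or 3 or treated replicate 2 and 1 without treated replicates 1 or 3, and the 2 falls ran from 1 to 4 when single libraries were left out, the 4 without treated replicate 1.

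Heat shock genes were mostly lower in both lines. In 23132/87 11 of 12 fell (median -1.59), beside 23.2% of all genes, and in SW48 7 of 12 (median -0.47), beside 19.2%. HSPB1, a small heat shock protein, had log2 changes of -2.23 ± 0.14 and -1.22 ± 0.20. HSPE1, a mitochondrial cochaperonin, had log2 changes of -1.69 ± 0.16 in 23132/87 and -0.99 ± 0.16 in SW48. HSPA1A and HSPA1B, near-identical HSP70 genes whose reads can be split between them, had log2 changes of -2.24 and -2.15 in 23132/87. The difference between the lines passed the test toward SW48 for 9 of the 12, beside 5.34% of all genes. Of these 9, HSPD1, DNAJB1 and HSP90AB1 did not pass the test in SW48, where HSPD1 stood at 473 in vehicle and 481 with myricone C. PHLDA1 thus shared the direction of this list in 23132/87 and was opposite to it in SW48.

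**Figure D5:**
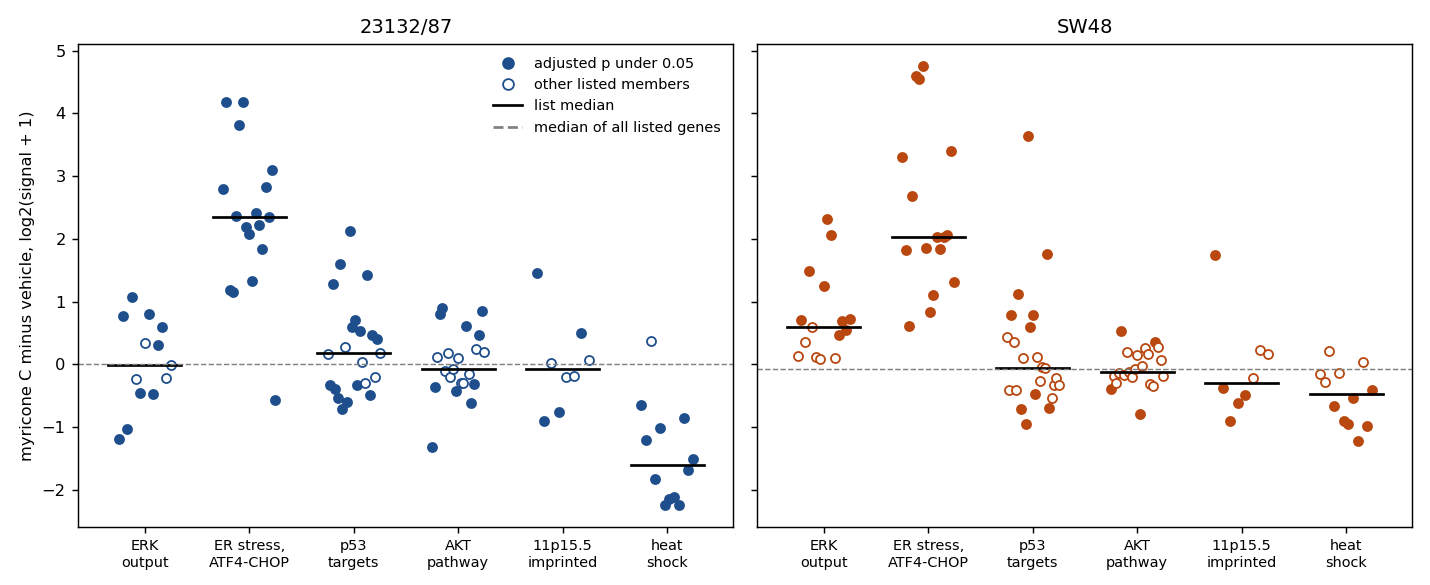
Change with myricone C on the log2(signal + 1) scale (vertical axis) for each analysed member of 6 gene lists in 23132/87 (left) and SW48 (right); filled points have an adjusted p under 0.05, black lines are list medians and the dashed line is the median of all genes. The ERK output median is near 0 in 23132/87 and 0.59 in SW48, while ER stress medians are 2.34 and 2.03.

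Genes with a similar pattern were sought among 5582 genes in both tables, those with a mean signal of at least 10 in each. For this, log2(signal + 1) minus the vehicle mean of the line was compared over 12 libraries by the root mean square difference. This measure ranks by likeness and says nothing of shared control. The changes of genes picked in this way follow from the choice and are given here without a test. FOSL1, picked below for PHLDA1-AS1, was tested above only as a member of the ERK output list. Closest to PHLDA1 was PHLDA1-AS1, at 0.328, where the median gene stood at 1.27. SERPINB1, a neutrophil protease inhibitor also made in epithelia, followed at 0.417, with log2 changes of -0.73 ± 0.12 (SE) in 23132/87 and 1.37 ± 0.23 in SW48. FERMT1, which encodes the integrin activator kindlin-1, stood at 0.421, with log2 changes of -0.47 ± 0.12 and 1.46 ± 0.21.

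After PHLDA1, the genes most like PHLDA1-AS1 were FOSL1 at 0.533 and S100A14, a calcium-binding protein of epithelia, at 0.547, where the median was 1.4. In 23132/87, where PHLDA1-AS1 was lower, their log2 changes were 0.34 ± 0.14 and -0.11 ± 0.14 (SE), and in SW48 they were 2.32 ± 0.34 and 1.79 ± 0.33. PHLDA2 was closest to IER2, an immediate early gene, at 0.129, then to MIDN at 0.171 and TINAGL1 at 0.19, with a median of 0.78. IER2 had log2 changes of 0.18 ± 0.16 in 23132/87 and 1.23 ± 0.25 in SW48, MIDN of 0.15 ± 0.13 and 1.14 ± 0.23, and TINAGL1 of 0.19 ± 0.19 and 1.17 ± 0.22. The genes closest to PHLDA3 were RNF126 (0.137), FBXO31 (0.157) and TSSC4 (0.161), with log2 changes between 0.00 and 0.27 in the lines and a median over all genes of 0.445.

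RefSeq promoter windows of GRCh38.p14, from 250 bases before to 50 after the start, held entries for PHLDA1 (chr12:76031727-76032026, minus strand) and PHLDA1-AS1 (chr12:76030244-76030543, plus strand). Their GC content was 69.3% and 63.7%, where the median of 35116 promoters was 58.7%. Searched on both strands, the GC box GGGCGG occurred once in the PHLDA1 window, at -36, and not in that of PHLDA1-AS1, while 45.0% of all promoters hold it. Neither window held the letters TGATGNAA (C/EBP-ATF element, in 3.62% of promoters), TGACGTCA (cyclic AMP response element, 1.85%), TGANTCA (AP-1 site, 7.71%) or GAANNTTC (heat shock element core, 6.77%). None of these motifs contains another.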

How the data were processed

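RNA libraries from 12 cultures were made with a stranded mRNA kit from RNA with an integrity number above 8, per the labels' protocols. The submitters' processing notes list FastQC, STAR and GRCh38, without versions. For the counting tool, strand setting, annotation and unit, nothing is stated in what was used here. The deposited tables, 1 per line, hold an expression signal per gene from the authors, not counts; every listed gene had a signal of at least 1 in all 6 libraries of its line, so depth and genes below that level are unknown. Because the values are not counts, limma 3.58.1 in R 4.3.3 (trend) was run on log2(signal + 1) over all genes with a mean signal of at least 1, separately in each line. A line-by-treatment term was fitted on 12 libraries over the 10252 genes sharing symbol and Ensembl identifier. Adjusted p-values are Benjamini-Hochberg over all genes, with a threshold of 0.05. Scripts were tested on simulated data. Groups came from sample titles; treated SW48 replicates 1, 2 and 3 are the columns numbered 2, 3 and 4. The members and lists were chosen with earlier results of these data known. Beyond the members, the text names up to 3 called genes with the largest changes per list and line, the 3 genes most like each member and the nearest listed gene on each side of it; XBP1, HSPD1, DNAJB1, HSP90AB1 and the markers were named after their values were seen. Alternatives were quantile, median and rescaled normalization, pseudocounts of 0.1 and 5, stricter or no filtering, no trend, a replicate block, a joint fit and omission of each library.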

Additional observations from a re-analysis of the deposited data

Results flagged for a closer look

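The change with myricone C in SW48 minus that in 23132/87 stood out for 22 of the genes named here. In every treated 23132/87 library PHLDA1 (difference of 3.01 on the log2 scale), PHLDA1-AS1 (3.14), SERPINB1 (2.10) and FERMT1 (1.93) were below all vehicle libraries, and in every treated SW48 library above them. These differences were not tested, because PHLDA1 and PHLDA1-AS1 were chosen on them and SERPINB1 and FERMT1 for their likeness to PHLDA1.

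For the other 18 genes the limma test of the difference itself gave an adjusted p under 0.05, as it did for 12.8% of all genes. They were named for large changes in a line or after their values were seen, so their number is not read as a result. KRT18 (3.17, adjusted p = 0.000273), KRT8 (2.67, adjusted p = 0.000468), KRT19 (1.96, adjusted p = 0.00223) and XBP1 (1.88, adjusted p = 0.000779) fell in 23132/87 and rose in SW48. DDIT4 differed by 2.56 (adjusted p = 0.000354) toward SW48. Among ERK output genes, FOSL1 differed by 1.98 (adjusted p = 0.00813), DUSP6 by 1.38 (adjusted p = 0.00125), CCND1 by 1.33 (adjusted p = 0.00513) and IER3 by 1.26 (adjusted p = 0.0298). HSPA1A differed by 1.34 (adjusted p = 0.00223), HSPA1B by 1.19 (adjusted p = 0.00536), HSPB1 by 1.02 (adjusted p = 0.0246), DNAJB1 by 0.93 (adjusted p = 0.00317), HSPD1 by 0.89 (adjusted p = 0.0025), HSP90AB1 by 0.87 (adjusted p = 0.00137) and AKT1 by 0.92 (adjusted p = 0.00972). Of these, HSPA1A, HSPA1B, HSPB1 and AKT1 fell in both lines, by less in SW48. DNAJB1, HSPD1 and HSP90AB1, like DUSP6 and CCND1, fell in 23132/87 and were not called in SW48. KCNQ1 (-0.92, adjusted p = 0.0434) and TSC1 (-0.78, adjusted p = 0.0258) differed toward 23132/87.

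Omitting single libraries ended 4 of these calls. HSPB1 lost it without 5 of the 12 libraries (adjusted p up to 0.0671), namely 23132/87 vehicle 2 and treated 1 and SW48 vehicle 2 and 3 and treated 3. TSC1 lost it without 6 (up to 0.0686), namely 23132/87 vehicle 1 and 2 and treated 1 and 2 and SW48 vehicle 2 and treated 2. IER3 lost it without 7 (up to 0.0703), namely 23132/87 vehicle 1 and 2 and treated 1 and 3 and SW48 vehicle 2 and treated 2 and 3. KCNQ1 lost it without 7 (up to 0.105), namely 23132/87 vehicle 1 and 3 and treated 2 and 3 and SW48 vehicle 2 and treated 2 and 3. The replicate block also ended the calls of TSC1 (adjusted p = 0.0639), IER3 (0.0604) and KCNQ1 (0.0712), quantile normalization those of IER3 and KCNQ1, and median-centred scaling that of KCNQ1.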

How the results depend on the processing

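The trend setting, either filter, the block by title number and the joint fit leave a member's log2 change as it was by construction. With these counted in, 213 recomputed changes of the 4 genes moved by less than the spread between replicates and 3 by more. Those 3 were PHLDA1 in 23132/87, at -0.78 with quantile normalization, -0.76 after rescaling without small RNA and mitochondrial pseudogenes and -0.76 with a pseudocount of 5, all still negative. Leaving out single libraries, PHLDA1 ran from -0.86 to -0.82 in 23132/87, 1.89 to 2.43 in SW48 and 2.73 to 3.27 for the difference, PHLDA1-AS1 from -0.86 to -0.49, 2.24 to 2.82 and 2.88 to 3.46, PHLDA2 from 0.16 to 0.41, 1.00 to 1.51 and 0.74 to 1.24, and PHLDA3 from -0.16 to 0.24, 0.10 to 0.55 and -0.00 to 0.45. Of the named genes' values, 2379 kept their call, 85 lost it, 21 gained it and none reversed.

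Counts over all genes moved more. With at least 10 in at least 3 libraries, 1658 genes rose in 23132/87 in place of 2582, and 812 differed between lines in place of 1309 (425 lower in place of 762), where fewer genes were tested. Leaving out single libraries gave 3959 to 4888 calls in 23132/87 (2009 to 2435 higher, 1950 to 2453 lower), 2199 to 3656 in SW48 (768 to 1333, 1431 to 2323) and 831 to 1413 for the difference (366 to 600, 465 to 828). The SW48 count of 3383 was lowest without treated replicate 2, and that of the difference without SW48 vehicle replicate 2. The share of higher calls in 23132/87, 50.1% as reported, was 59.1% when rescaled and 45.8% with median-centred scaling. In SW48, 34.6% as reported, it was 46.2% with quantile normalization and 46.4% when rescaled. That of the difference, 41.8%, was 53.5% with quantile and 57.1% with median-centred scaling. The cause was not tested.

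Replicate numbers were not taken to pair the libraries: by title number, deviations correlated across genes at -0.24, 0.112 and -0.27 in 23132/87 and -0.0732, -0.175 and -0.138 in SW48. By the numbers in the column names, SW48 has 2 shared numbers (2 and 3), at 0.152 and 0.271. With the replicate block, 770 genes differed between lines (354 higher, 416 lower), and the ERK output count of 6 became 3. A block by column number gave 2585 calls in SW48 in place of 3383 (831 higher). With it AKT1, CDH1, FOXO3 and MRPL23 were no longer called in SW48, LAD1 was, and the SW48 falls became 1 of the p53 list, 1 of the AKT list, 2 of the imprinted domain and 4 of heat shock, with no AKT list rise.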
